A study of Mus musculus with 3 samples.

Results

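RNAP2 and Med12 peaks from E12.5 mouse distal forelimb were examined around Shh, Rnf32 and Lmbr1, the 3 genes that lie along the long-range limb regulatory landscape of Shh on chromosome 5. The interval runs from 100 kb beyond the 3′ end of Shh to 100 kb beyond the start of Lmbr1, chr5:28683355-29804930 on mm9 with the GENCODE vM1 annotation, and spans 1121.6 kb. A peak was taken when it shared at least 1 base with this interval, whatever its score. There were 6 of the 20479 RNAP2 peaks and 4 of the 10634 Med12 peaks in it, 10 of 31113 in all, and 1 RNAP2 peak overlapped 1 Med12 peak. The study mapped candidate enhancers by chromatin immunoprecipitation and sequencing (ChIP-seq), with 1 RNAP2 library, 1 Med12 library and 1 input library. It used these together with published whole limb bud data for other marks of active enhancers, which were not examined here. The antibodies were PolII (Abcam ab5131) and Med12 (Bethyl A300-774A), and all 3 libraries came from dissociated, formaldehyde-fixed cells of distal forelimbs. The labels name no strain, transgene or treatment for any library. There were no replicates, so no value below has an error or a test, and the peak lists hold no read counts, so the depth behind a peak is unknown.

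Sonic hedgehog (Shh) is the secreted signal made by cells at the posterior margin of the limb bud, the zone of polarizing activity, and it sets the number and identity of digits. Its limb expression depends on the ZRS, an enhancer that lies far from Shh, in intron 5 of Lmbr1, a gene for a membrane protein. Rnf32, a gene for a RING finger protein, lies between both. RNAP2, the polymerase that transcribes protein-coding genes, is found at active promoters and at many active enhancers, and Med12 is a subunit of the kinase module of Mediator, the complex that links enhancer-bound factors to RNAP2.

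Sequences are given first for the starts and sites that the results turn on. The promoters are RefSeq windows of 300 bases around the starts of Rnf32 and Lmbr1, the members whose starts had a peak. They were matched letter for letter to mm9 and are written in the direction of transcription. Shh had no entry in the promoter table. The other windows are the 300 bases at the centre of a peak, on the plus strand of mm9. They are the Med12 peaks of the gene desert and of Lmbr1 and the 3 RNAP2 peaks that lay away from gene starts. Capitals mark, on either strand, 5 words: CANNTG (the E-box, bound by Hand2 and Twist1), GGAAGT (the core bound by ETS factors), CAATAAA (bound by Hoxa13 and Hoxd13), GATAAG (bound by GATA factors) and TGGGTGGTC (bound by Gli factors). No marked words overlapped in these windows.
Rnf32 promoter, chr5:29522283-29522582, plus strand: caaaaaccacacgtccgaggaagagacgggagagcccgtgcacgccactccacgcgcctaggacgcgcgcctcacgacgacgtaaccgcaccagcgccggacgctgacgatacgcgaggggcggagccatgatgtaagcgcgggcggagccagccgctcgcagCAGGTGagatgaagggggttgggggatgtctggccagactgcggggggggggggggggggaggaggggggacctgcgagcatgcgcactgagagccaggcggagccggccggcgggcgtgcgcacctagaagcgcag
Lmbr1 promoter, chr5:29704881-29705180, minus strand: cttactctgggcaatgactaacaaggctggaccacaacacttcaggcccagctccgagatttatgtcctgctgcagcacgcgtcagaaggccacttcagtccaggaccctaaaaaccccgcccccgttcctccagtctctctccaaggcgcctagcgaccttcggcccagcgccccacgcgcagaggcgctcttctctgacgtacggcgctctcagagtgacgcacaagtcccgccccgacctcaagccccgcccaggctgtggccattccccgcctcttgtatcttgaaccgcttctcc
Med12 peak between Shh and Rnf32, chr5:29418691-29418990: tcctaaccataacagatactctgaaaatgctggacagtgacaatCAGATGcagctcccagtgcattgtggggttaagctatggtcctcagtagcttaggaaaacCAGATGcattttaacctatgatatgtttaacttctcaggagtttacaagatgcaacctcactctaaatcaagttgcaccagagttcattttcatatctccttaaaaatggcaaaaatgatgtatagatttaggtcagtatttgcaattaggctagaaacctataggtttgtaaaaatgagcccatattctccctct
Med12 peak in intron 9 of Lmbr1, chr5:29604355-29604654: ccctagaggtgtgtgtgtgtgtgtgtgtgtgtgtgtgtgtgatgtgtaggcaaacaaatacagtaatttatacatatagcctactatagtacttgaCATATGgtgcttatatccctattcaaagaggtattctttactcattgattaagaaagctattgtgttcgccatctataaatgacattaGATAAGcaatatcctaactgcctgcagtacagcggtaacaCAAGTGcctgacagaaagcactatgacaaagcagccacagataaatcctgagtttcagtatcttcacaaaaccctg
RNAP2 peak in Rbm33, chr5:28717076-28717375: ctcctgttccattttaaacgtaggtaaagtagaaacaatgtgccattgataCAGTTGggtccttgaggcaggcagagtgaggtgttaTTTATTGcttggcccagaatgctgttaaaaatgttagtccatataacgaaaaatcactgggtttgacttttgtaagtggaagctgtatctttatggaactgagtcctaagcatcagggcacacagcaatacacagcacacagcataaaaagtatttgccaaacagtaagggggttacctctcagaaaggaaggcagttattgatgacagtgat
RNAP2 peak that overlaps Med12 near Mnx1, chr5:29794882-29795181: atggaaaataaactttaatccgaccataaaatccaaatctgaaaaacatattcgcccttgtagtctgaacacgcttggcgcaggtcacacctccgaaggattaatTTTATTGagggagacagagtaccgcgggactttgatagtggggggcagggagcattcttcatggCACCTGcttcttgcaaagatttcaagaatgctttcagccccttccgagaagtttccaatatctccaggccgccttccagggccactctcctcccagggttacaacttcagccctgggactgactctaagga
Second RNAP2 peak near Mnx1, chr5:29796981-29797280: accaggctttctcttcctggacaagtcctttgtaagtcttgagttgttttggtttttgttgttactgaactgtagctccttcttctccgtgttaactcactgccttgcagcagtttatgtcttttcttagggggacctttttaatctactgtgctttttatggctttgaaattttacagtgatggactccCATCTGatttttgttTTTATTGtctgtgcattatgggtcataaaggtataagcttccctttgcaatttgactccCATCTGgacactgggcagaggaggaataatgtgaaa

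**Figure D1:**
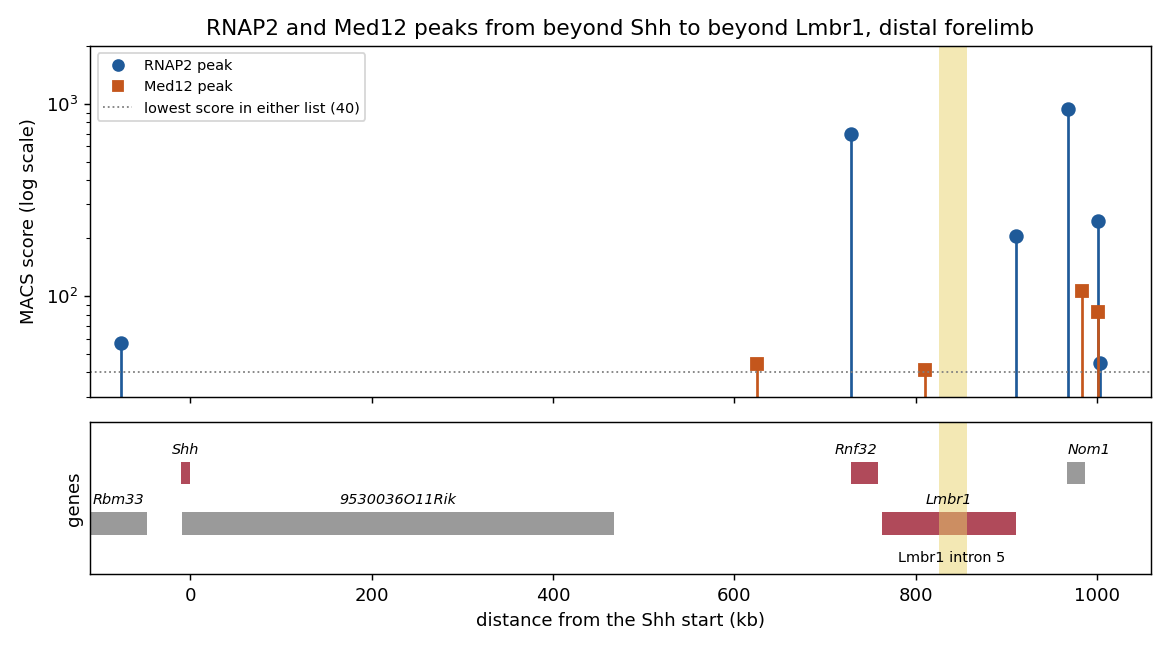
RNAP2 (circles) and Med12 (squares) peaks by distance from the Shh start in kb and by MACS score on a log axis, with the coding genes Shh, Rnf32, Lmbr1, Nom1 and Rbm33 and the noncoding gene 9530036O11Rik below and intron 5 of Lmbr1 shaded. No peak stands over Shh or intron 5, and 9 of the 10 peaks have their centre at least 625.2 kb to the right of the Shh start.

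The Shh start carried no peak of either list. Shh (ENSMUSG00000002633.3) lies on the minus strand at chr5:28783355-28793641, with 1 annotated transcript and its start at 28793641, and no peak shared a base with its 10287 bp. The nearest RNAP2 peak, at chr5:28716624-28717827, lay 75814 bp away, beyond the 3′ end of Shh and inside an intron of Rbm33, a gene for an RNA-binding protein. Its MACS score was 57.0. This score is 10 times the negative log10 of the p-value of the peak, so that the lowest score in either list, 40.0, stands for a p-value of 0.0001. Of all RNAP2 peaks, 79.0% scored as high or higher. The nearest Med12 peak lay 149770 bp away, at the start of Rbm33 outside the interval, with a score of 51.3. That start also had an RNAP2 peak with a score of 2568. The median score was 123 in the RNAP2 list and 56.8 in the Med12 list.

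A start far from any peak was common in these lists. Of 22367 protein-coding genes, 6202 (27.7%) had their nearest RNAP2 peak at least as far away as Shh had, and among the 13414 genes without an RNAP2 peak at the start the median distance was 65.4 kb. For Med12, 7765 genes (34.7%) had theirs at least as far. The noncoding genes beside Shh were also without a peak. A transcript of 9530036O11Rik starts 117 bp from the Shh start and that of Gm17493 727 bp from it. In pooled chromatin, no binding, binding in a small share of the cells and weak binding in all of them cannot be told apart.

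**Figure D2:**
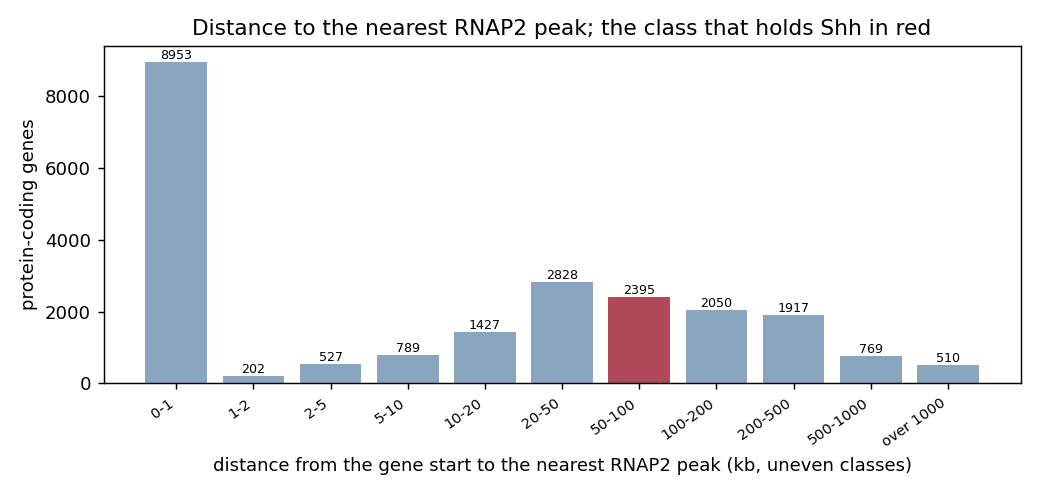
Number of protein-coding genes (vertical axis) by the distance in kb from the gene start to the nearest RNAP2 peak (horizontal axis, uneven classes), with the class that holds Shh in red. The class of 0 to 1 kb holds 8953 genes and the class of Shh, 50 to 100 kb, holds 2395.

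The stretch between Shh and Rnf32 was almost free of peaks. From the end of the Shh gene to the start of Rnf32, over 728.9 kb, the only RNAP2 peak was the one at the Rnf32 start, which reached 1055 bp into the stretch. The peak-free stretch around the Shh start ran for 803.6 kb in the RNAP2 list, from 28717828 to 29521476, and 527 of the 20458 stretches between neighbouring RNAP2 peaks of a chromosome (2.58%) were as long. The median such stretch was 34.7 kb. In the Med12 list it ran for 774.6 kb, from 28643872 to 29418508, and 616 of 10613 stretches (5.80%) were as long, against a median of 118 kb. These shares count stretches and not bases. A long stretch is more likely than a short one to hold any given start, so the shares understate how common such a place is. Gm10290, a protein-coding gene model in this stretch, started 147233 bp from the nearest RNAP2 peak, and 9530036O11Rik, a long noncoding gene of 475722 bp that starts inside Shh and runs into the stretch, had no peak in its body.

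The desert held 1 Med12 peak. It lay at chr5:29418509-29419172, 624868 bp from the Shh start and 103360 bp from the Rnf32 start, was 664 bp wide and had a score of 44.2. Of all Med12 peaks, 81.8% scored as high or higher. The nearest RNAP2 peak, that of the Rnf32 start, was 102637 bp from its centre. The peak had no base in an alignment to another place in the genome of at least 50 bp at 95% identity or more. At a limit of 50, which is a p-value of 1e-05, neither this peak nor the Med12 peak inside Lmbr1 was kept.

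Both other members, Rnf32 and Lmbr1, had a called RNAP2 peak and no called Med12 peak at the start. The paper gives fewer filtered reads for the Med12 library than for the RNAP2 library. A peak within 1 kb of the outermost annotated start was counted, so that 2 of the 3 members had RNAP2, where 40.0% of all protein-coding genes had it, and 0 of the 3 had Med12, where 8.20% had it. With 3 members, a single start more or less would put either count on the other side of its background.

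Rnf32 (ENSMUSG00000029130.6) lies on the plus strand at chr5:29522532-29552064. Its RNAP2 peak, at chr5:29521477-29522886, covered 1055 bp upstream and 354 bp downstream of the start and had a score of 696. Among the 8953 protein-coding genes with an RNAP2 peak at the start, where the median score was 386, 32.8% scored as high or higher. The peak covered 9 of 11 annotated Rnf32 transcript starts, and the others lay 1660 bp and 2325 bp from it. The nearest Med12 peak was 81654 bp away.

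The peak at the Lmbr1 start was weaker than the median peak at a coding start. Lmbr1 (ENSMUSG00000010721.8) lies on the minus strand at chr5:29556354-29704930, facing Rnf32, and the ends of both genes are 4290 bp apart. Its RNAP2 peak, at chr5:29704331-29705563, had a score of 206, and 68.1% of coding genes with an RNAP2 peak at the start scored as high or higher. The peak covered both annotated Lmbr1 transcript starts. It also covered the start of 4632411P08Rik, a noncoding gene transcribed the other way from 309 bp upstream, so the polymerase of either gene cannot be told apart. The nearest Med12 peak was 71454 bp away.

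These peaks differed in their placement on the start. The Rnf32 peak reached much farther upstream than downstream, while that of Lmbr1 covered 633 bp upstream and 599 bp downstream. Over 8472 coding starts that an RNAP2 peak covered, the medians were 664 bp upstream and 778 bp downstream, and 64.6% of these peaks reached farther downstream. Nom1, a gene for a nucleolar protein and the next coding gene beyond Lmbr1, had a peak with 610 bp upstream and 803 bp downstream and a score of 938, the highest in the interval.

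**Figure D3:**
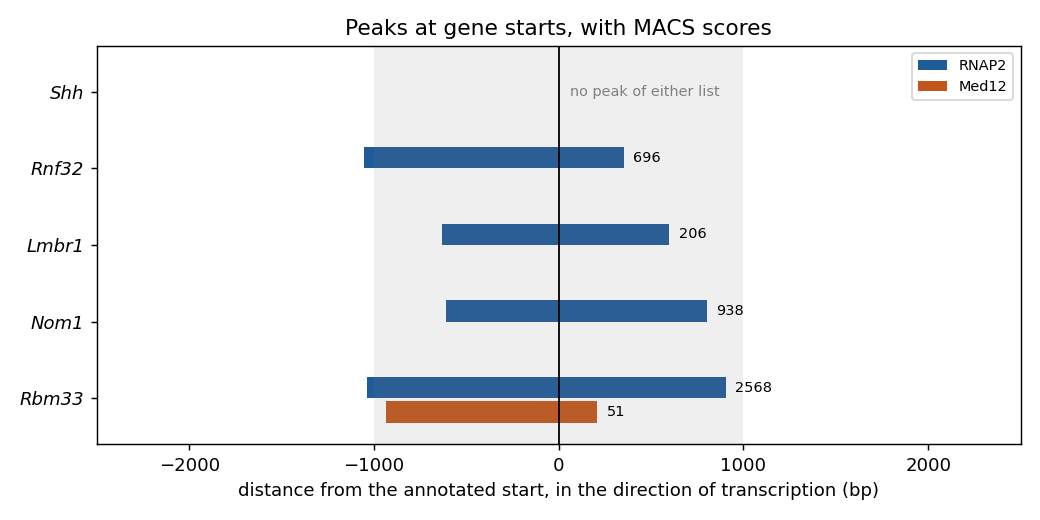
Extent of RNAP2 and Med12 peaks around the annotated starts of the 3 members and the flanking genes Nom1 and Rbm33, in bp along the direction of transcription, with the MACS score beside each bar and the 1 kb on each side shaded. Shh has no bar, Rnf32 (696) and Lmbr1 (206) have RNAP2 alone, and Rbm33 has RNAP2 (2568) and Med12 (51).

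The promoters printed above lay above the median promoter in G and C and in CpG. The Rnf32 window had 71.0% G and C and 36 CpG, with a ratio of observed to expected CpG of 0.993, and that of Lmbr1 had 62.0%, 21 CpG and a ratio of 0.795. The medians over 32851 RefSeq promoters were 52.7% and 0.384. These cover all promoters, while the 2 windows were printed because their starts had an RNAP2 peak. The Rnf32 window held 1 E-box, a word found in 72.3% of those promoters. None of the 5 words was in the Lmbr1 window.

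Intron 5 of Lmbr1, the intron known for the ZRS, had no peak of either list. In the longest coding transcript (ENSMUST00000055195.4), which has 17 exons, intron 5 is the longest of 16 introns, with 30852 bp at chr5:29619490-29650341, or 20.8% of the gene. Its ends lie 825849 bp and 856700 bp from the Shh start. The nearest RNAP2 peak was 53990 bp away, at the Lmbr1 start, and the nearest Med12 peak was 14668 bp away, in intron 9. The coordinates of the ZRS itself were not used here, so the absence of a called peak is stated for the intron as a whole.

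Of the 16 Lmbr1 introns, 14 were without a peak of either list. Intron 1 was reached by the RNAP2 peak of the start. Intron 9, of 23915 bp, held the 1 Med12 peak inside Lmbr1, at chr5:29604186-29604822, which was 637 bp wide and lay 810545 bp from the Shh start. Its score was 41.05, so that 95.1% of Med12 peaks scored as high or higher, and 9.89% of its bases aligned elsewhere in the genome under the limits given above. The nearest RNAP2 peak was 81618 bp from its centre. The Med12 peaks of the desert and of Lmbr1 thus both scored low in their list, and neither overlapped RNAP2.

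The other peaks lay in the 100 kb beyond Lmbr1. The interval had 5.35 RNAP2 peaks per Mb where the genome had 8.00, and 3.57 Med12 peaks per Mb where the genome had 4.16. Most of them stood at the far end. Of the 10 peaks, 8 reached past the Rnf32 start, in the last 282.4 kb, and 4 RNAP2 and 2 Med12 peaks touched the 100 kb past the Lmbr1 start.

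The single overlap of both lists was there. An RNAP2 peak at chr5:29794396-29795666, with a score of 244, shared 791 bp with a Med12 peak at chr5:29794876-29795808, with a score of 82.8. The shared bases were 62.2% of the RNAP2 peak and 84.8% of the Med12 peak. They lie between genes, 1000.8 kb from the Shh start, 14350 bp past the end of Nom1 and 3912 bp past the 3′ end of Mnx1, a homeobox gene known from motor neurons and pancreas. The RNAP2 peak was 9393 bp from the Mnx1 start, which had no peak of either list within 1 kb. In the interval, 1 of 4 Med12 peaks overlapped an RNAP2 peak, where 42.7% of all Med12 peaks did, and 1 of 6 RNAP2 peaks overlapped a Med12 peak, where 21.7% of all RNAP2 peaks did.

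A second RNAP2 peak lay closer to Mnx1, at chr5:29796621-29797640, 7419 bp from its start, with a score of 45.1. The remaining Med12 peak, at chr5:29776384-29777269 in an intron of Nom1, had a score of 106, the highest of the 4, which 16.7% of Med12 peaks reached. It was 15180 bp from the Nom1 start and had no RNAP2 peak over it. Of its bases, 26.3% aligned elsewhere in the genome, the highest share among the 10 peaks. For the Med12 peak that overlapped RNAP2 the share was 13.9%. The part of repeated sequence in these peaks was not tested.

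The marked words differed in how often windows of this kind held them, and the E-box was the most frequent. Each of the 3 RNAP2 windows away from starts held CAATAAA and at least 1 E-box. CAATAAA was in 10.3% and the E-box in 79.6% of the 12453 RNAP2 windows away from coding starts. The Med12 window of the desert had 2 E-boxes, with the same letters, CAGATG, in both, and that of intron 9 had 2 E-boxes and 1 GATAAG. Over the 4 Med12 windows, 3 had an E-box, which 80.1% of the 9041 Med12 windows away from coding starts had, and 2 had GATAAG, where 7.58% had it. None of these 7 windows had GGAAGT, which was in 17.4% of such RNAP2 windows and 16.3% of such Med12 windows, or TGGGTGGTC, which was in 0.177% and 0.232%. These windows are few, and a word in them is a description of letters and not of binding.

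Most genes of hedgehog signalling had RNAP2 at the start in the same library, though Shh did not. Of 15 genes, Shh counted among them, 11 had an RNAP2 peak at the start and 2 had Med12. The shares over all coding genes were 40.0% and 8.20%. The ligands had none. The nearest RNAP2 peak was 122575 bp from the start of Ihh, the ligand of growing cartilage, and 18666 bp from that of Dhh, the ligand of testis and peripheral nerve. Hhat, the enzyme that attaches palmitate to hedgehog ligands, had a peak with a score of 40.02, near the lowest in the list.

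Genes of the receiving side had scores on both sides of 386, the median over coding starts with an RNAP2 peak. RNAP2 was called at the starts of the 6 receptor and co-receptor genes given here. Gas1, a co-receptor, had a score of 3100 and a Med12 peak of 434, and Smo, the membrane protein that passes the signal on, had a score of 1368. The co-receptors Cdon and Boc had 446 and 420. Ptch1 and Hhip, which bind the ligand and are themselves targets of the pathway, had lower scores, of 120 and 59.3. Of the genes that act inside the cell, Gli2 had an RNAP2 score of 2834 and a Med12 score of 137. Gli3, the factor that acts mainly as a repressor, had 2637, the cytoplasmic inhibitor Sufu 111 and the kinesin Kif7 238. That Sufu peak ended upstream of the start, and the peak over the Sufu start had a score of 89.3. No RNAP2 peak covered the Kif7 start, and the peak given lay 812 bp from it. The start of Gli1, another target of the pathway, had no peak of either list within 1 kb, and a Med12 peak with a score of 114 lay 1226 bp from it. RNAP2 was thus called at the starts of most genes that receive the signal and at no ligand gene.

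**Figure D4:**
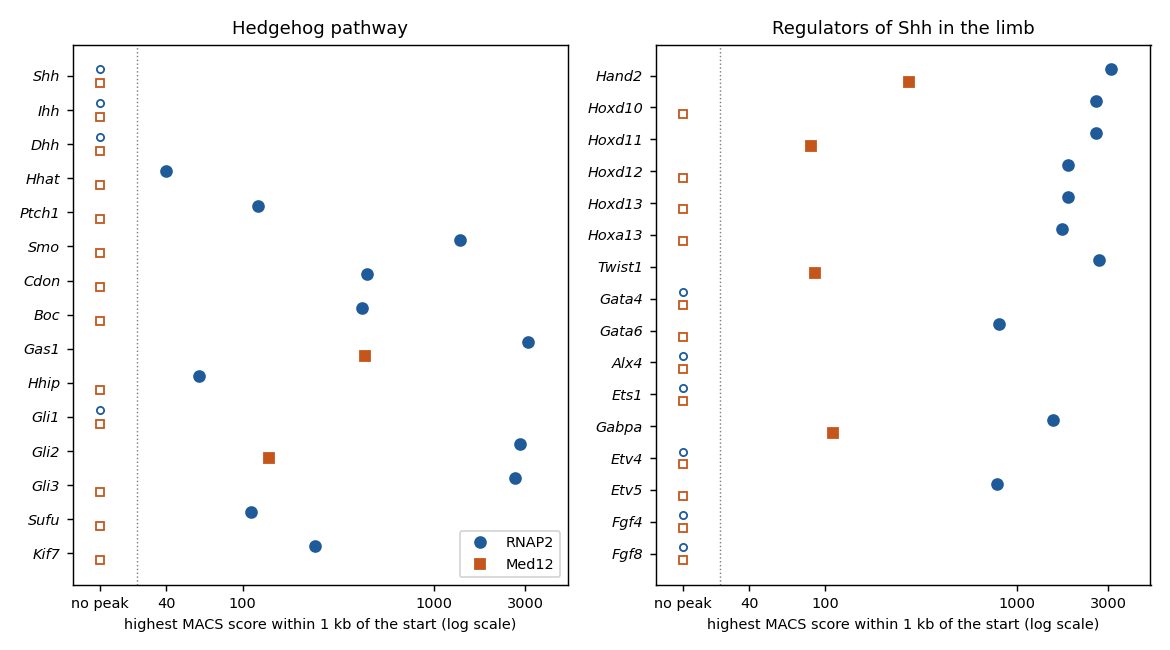
Highest MACS score of an RNAP2 (circles) and a Med12 (squares) peak within 1 kb of the start, on a log axis, for 15 hedgehog pathway genes and 16 genes that regulate Shh in the limb, with open symbols at the left for genes without a peak. RNAP2 was called at 11 and 10 of the genes and Med12 at 2 and 4, and Shh is open for both.

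Genes known to regulate Shh in the limb carried RNAP2 at 10 of 16 starts, where 40.0% of all coding genes had it, and Med12 at 4, where 8.20% had it. Their RNAP2 scores, each that of the highest peak within 1 kb, were 789 to 3100. Hand2, the bHLH factor that activates Shh, had an RNAP2 score of 3100 and a Med12 score of 272. Gas1 and the marker gene Msx1 had the same RNAP2 score, so these peaks cannot be ranked among themselves. The posterior Hox genes, whose products also act through the ZRS, lay in wide peaks. Hoxd12 and Hoxd13 shared 1 peak, 10415 bp wide and with a score of 1855, and Hoxd10 and Hoxd11 shared one of 16825 bp with a score of 2606. Hoxa13 had a score of 1726, from a peak that lay downstream of the start. The peak over the Hoxa13 start had a score of 535. Hoxd11 had a Med12 peak of 83.9. Twist1, a bHLH factor that can pair with Hand2, had 2686 with a Med12 peak of 88.3.

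Among the ETS factors, Gabpa had an RNAP2 score of 1538 with a Med12 peak of 109 and Etv5 had 789, while Ets1 and Etv4 had no peak at the start. Gata6, which restricts Shh to the posterior limb, had a score of 808. That peak ended 625 bp upstream of the Gata6 start, and the peak over the start had a score of 104. Gata4 and Alx4, an anterior homeobox gene, had none, with RNAP2 peaks 4165 bp and 3903 bp away. Fgf4 and Fgf8, signals of the ectodermal ridge that maintain Shh, had none within 1 kb, and an RNAP2 peak with a score of 42.1 lay 1678 bp from the Fgf8 start.

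The labelled tissue was checked by RNAP2 at the starts of marker genes. Over all coding genes, 40.0% had RNAP2 there. RNAP2 was called at all 4 markers of limb mesenchyme (Prrx1, Prrx2, Twist1 and Msx1, with scores of 266 to 3100), at both distal markers (Hoxa13 and Hoxd13) and at the forelimb gene Tbx5 (1987). The score of 266 was that of Prrx2, from a peak downstream of the start. No RNAP2 peak covered the Prrx2 start, and the nearest, with a score of 54.9, lay 659 bp away. Of the hindlimb genes, Pitx1 had a score of 99.3 and Tbx4 had no peak. No peak was called at the 4 markers of limb ectoderm, the 2 of muscle, the 2 of blood or the 2 of endothelium, and of the neural markers Sox2 had one (1166) and Neurod1 none. The part that these cell types have in the peaks of the interval was not tested.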

How the data were processed

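Reads lost their first base, were aligned to mm9 by the authors with Bowtie and, after duplicates had been filtered, were used for peak calling in MACS 1.4.1. Whether the input served as the control is not stated in the sources used here. The deposited value of each peak is its MACS score, which depends on the depth of a library and the width of a peak, so that scores were compared within a list alone. The stated threshold was a p-value of 1e-05, but both lists reach 0.0001. The series text gives E11.5, and the sample labels and the paper E12.5.

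Peaks were placed on GENCODE vM1 with Python 3.11.15 and numpy 2.4.6, and the counting was tested on simulated lists. A start is the outermost annotated start of a gene, and a peak within 1 kb counts. The highest-scoring peak within that distance is given. Of 12 forward primers of enhancer candidates in the study's supplementary material, 12 matched mm9 at their stated positions. The other primers of the study were not checked. Repeated sequence was sought with blastn 2.17.0, and plots were drawn with matplotlib 3.10.9.

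The members and gene lists were chosen with earlier results of these data known. Named genes are those that start in the interval and those of the lists, and Rbm33 and Mnx1 as neighbours of peaks. Of the 49 genes in the lists, Disp1 could not be matched. A gene beyond these 49 is not reported here and is in no count. Alternatives were other score limits, flanks, start distances, start definitions and overlap rules. The input library has no peak list and was not used here.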

Additional observations from a re-analysis of the deposited data

How the results depend on the processing

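No paired analysis was possible because there was a single library per antibody. Of 46 recomputed values of 10 counts, 30 stayed within 1.5 times the reported count and 16 did not. The counts of member starts with RNAP2 (2) and Med12 (0) did not change under any setting, including a distance of 0.5 kb, which was chosen after seeing the data. With a score of at least 50, Med12 peaks in the interval fell from 4 to 2, and those inside Lmbr1 and between Shh and Rnf32 from 1 to 0 each. With a score of at least 100, they were 1, 0 and 0, and the overlaps of either list were 0, while over the whole lists the share of Med12 peaks that overlapped RNAP2 was 73.7%, that of RNAP2 peaks that overlapped Med12 12.3%, and coding starts with Med12 2.03%. Without a flank, 2 RNAP2 and 2 Med12 peaks and 0 overlaps of either list were left. With a flank of 200 kb there were 7 Med12 peaks and 2 overlaps of either list. By peak centres, 0 RNAP2 peaks lay inside Lmbr1. The lists give no depth, so a peak under the score limit cannot be told from no binding.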
